A study of Mus musculus with 12 samples.

Results

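The genes described here encode the proteins of the cytosolic ribosome. They were the protein-coding genes whose GENCODE M21 symbol had the form of a cytosolic ribosomal protein name (Rpl or Rps and a number, Rplp0 to Rplp2, or Rpsa, with the Rps6 kinases left out). The rule found 83 members among 53465 genes, of which 32 belong to the small subunit, 48 to the large subunit and 3 to the ribosomal stalk. RNA-seq reads were counted per gene in whole liver of C57BL/6N mice, which the study's methods describe as male, with 1 animal per sample and no treatment in any group. Young mice were 3 months old, middle-aged mice 12 months and aged mice 18 months, with 4 livers per age. Whole liver mixes cell types, so fewer cells of a type and less RNA per cell cannot be told apart.

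A ribosome joins a small subunit, which reads the mRNA, to a large subunit, which forms peptide bonds, and each protein of it is needed in a fixed ratio to the others. The mRNAs of these proteins share a start known as the 5′ terminal oligopyrimidine (TOP) motif, a C followed by a run of C and T, through which mTORC1 and LARP1 control their translation. Liver, which secretes most plasma proteins, carries many ribosomes.

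The start letters are shown because they are the feature the members are best known to share. The RefSeq promoter table (GRCm38.p6) held 63 of the 83 members. A C followed by at least 4 bases that are C or T, beginning within 5 bases of the annotated start, was found in 27 of these 63 (42.9%), and in 18.3% of all 32851 promoters in the table. Of 3 other motifs searched on either strand of the 300-base window, CCGGAAG stood in 38.1% of members and 8.86% of all promoters, GGGCGG in 60.3% and 35.7%, and TATAA in 27% and 24.9%. The sequences below give 15 bases before the annotated start and 15 from it onwards, with the pyrimidine run in capitals. The first 6 hold the run, and Rpsa, Rpl9 and Rpl41 do not hold it in this window.

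Rps6 (chr4:86857353-86857382, minus strand): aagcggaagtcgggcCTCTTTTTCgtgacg
Rps10 (chr17:27635230-27635259, minus strand): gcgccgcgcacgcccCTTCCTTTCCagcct
Rps27 (chr3:90213634-90213663, minus strand): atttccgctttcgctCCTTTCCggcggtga
Rpl34 (chr3:130730384-130730413, minus strand): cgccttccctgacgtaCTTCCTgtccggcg
Rpl35 (chr2:39005117-39005146, minus strand): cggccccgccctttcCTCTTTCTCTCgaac
Rplp2 (chr7:141447636-141447665, plus strand): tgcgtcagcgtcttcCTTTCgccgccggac
Rpsa (chr9:120127751-120127780, plus strand): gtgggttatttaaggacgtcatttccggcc
Rpl9 (chr5:65391417-65391446, minus strand): acgcagggccctgacggattacaagaacgt
Rpl41 (chr10:128549154-128549183, minus strand): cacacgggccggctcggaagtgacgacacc

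Total gene counts ran from 8124312 to 10527159 per liver. Young replicate 2 stood apart, with 19.2% of gene counts from mitochondrially encoded genes against 5.48% to 10.7% in the other 11 livers, and with spike-in RNA at 10.6% of all counts against 1.59% to 6.23%. Young replicate 3 and middle-aged replicate 1 had 22284 and 19982 genes detected, and the other livers 16361 to 17563. Hepatocyte markers were high in every liver (11 genes, summed at 87350 to 129500 CPM, counts scaled to the library total). The erythroid markers, 6 genes, stood at 2422 to 7880 CPM in young, 1389 to 5520 in middle-aged and 1031 to 2261 in aged livers. In middle-aged against young DESeq2 called 0 of 5, with 0 at an unadjusted p under 0.05, beside 6.41% of all genes called. In aged against young it called 2 of 6, both lower, beside 3.58% of all genes. Unadjusted p was under 0.05 for 5 of the 6 there, beside 15.9% of all genes. In aged against middle-aged it called 0 of 5, beside 1.14%, with all 5 at an unadjusted p under 0.05, beside 9.94%. The 5 markers with a mean of at least 50 had median log2 fold changes of -0.54, -1.83 and -1.30 in these comparisons, in that order. The part of the erythroid markers in the results was not tested. The 12 Kupffer cell and macrophage markers had a median log2 fold change of -0.39 in middle-aged and -0.09 in aged livers. In each, 10 of 12 were lower. DESeq2 called 0 of these markers in middle-aged livers (4 at an unadjusted p under 0.05). In aged livers it called 1, which was higher than in young. Their summed level overlapped between ages, at 470 to 784 CPM in young, 445 to 912 in middle-aged and 575 to 876 in aged livers. Its Pearson's r with the members' median deviation was 0.416 over 12 livers and 0.623 without the 2 farthest (Spearman's rho 0.517 and 0.576). Within replicates 1 and 2 r was 0.645 and within replicates 3 and 4 it was -0.0807, and the part of these markers in the results was not tested either.

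Of the 83 members, 82 had at least 1 count, 79 had counts in all 12 livers, and 77 reached 50 normalised counts on average. Together the members took 1.97% ± 0.118 of gene counts in young livers, 1.66% ± 0.0977 in middle-aged livers and 1.75% ± 0.258 in aged livers (SD, n = 4 each). The 4 young livers held 1.82%, 2.11%, 1.96% and 1.97%. The middle-aged livers held 1.65%, 1.54%, 1.68% and 1.78%, all below every young liver. The aged livers held 2.05%, 1.5%, 1.58% and 1.88%, so that replicates 1 and 4 lay among the young livers and replicates 2 and 3 among or below the middle-aged ones. The small subunit accounted for 0.836% ± 0.0517, 0.701% ± 0.0428 and 0.741% ± 0.115 at the 3 ages, and the large subunit for 0.983% ± 0.0556, 0.846% ± 0.0469 and 0.895% ± 0.124.

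**Figure D1:**
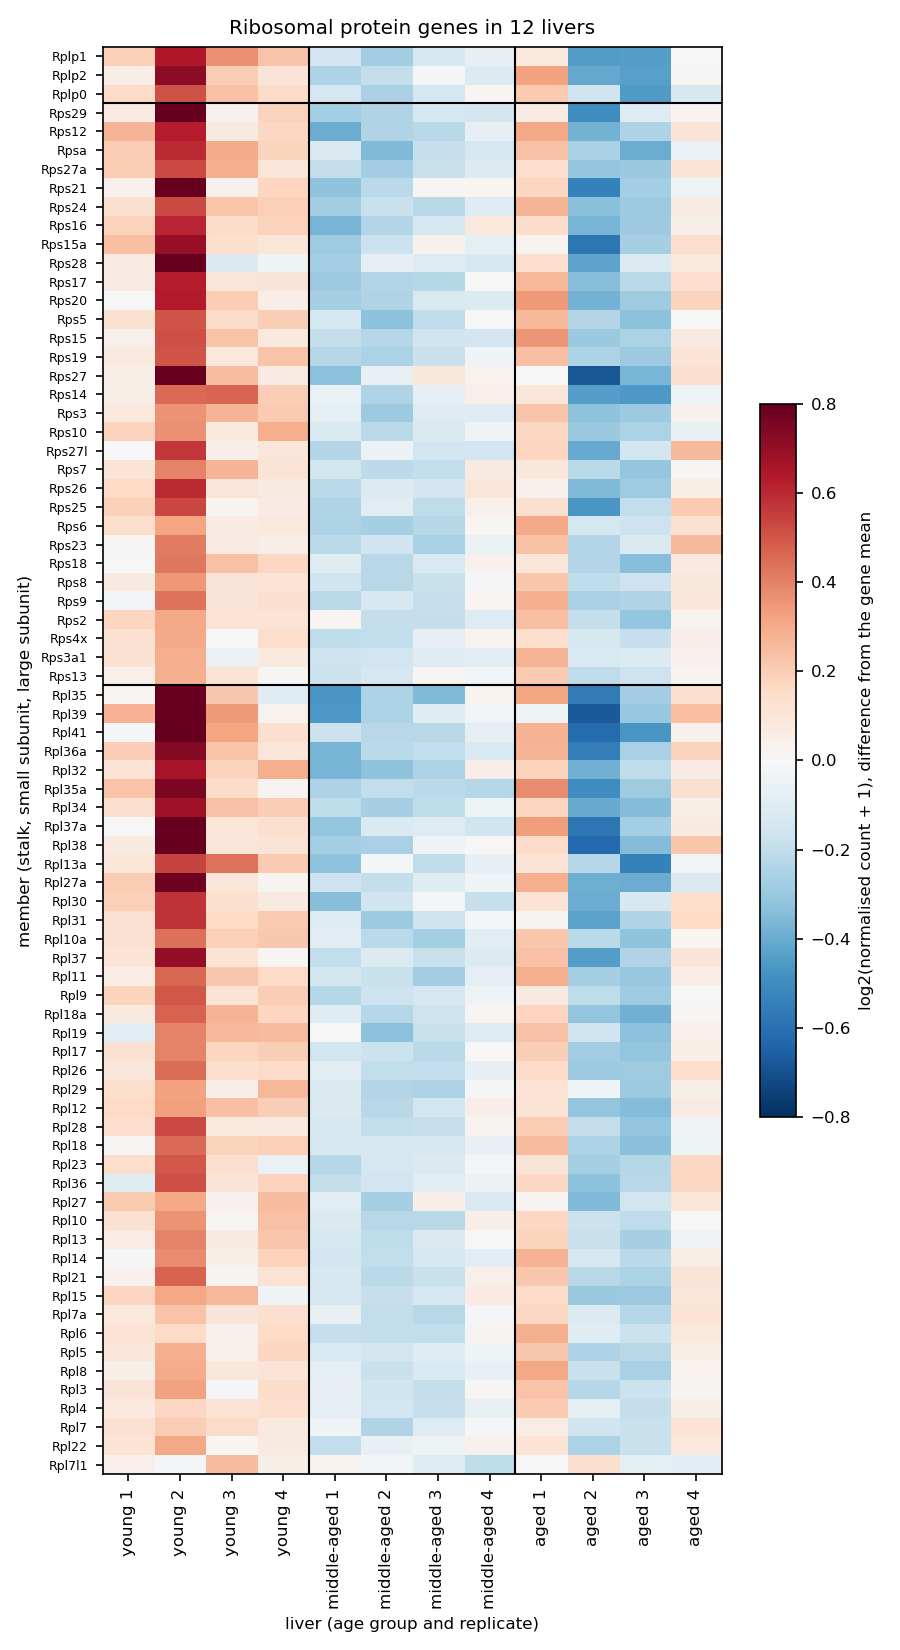
Each row is one of 76 members and each column one liver. Colour gives log2(normalised count + 1) minus the mean of that gene over 12 livers. Young replicate 2 was the highest of the 12 livers for 71 of the 76 members shown, and the aged livers split into 2 higher and 2 lower libraries.

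Middle-aged against young asked how the members differ at midlife. Every one of these 77 members had a lower mean in middle-aged livers, with a median log2 fold change of -0.36, beside 0.00 over all genes at that level. Of 78 members tested, 24 fell and none rose (DESeq2 Wald test, adjusted p under 0.05), where 6.41% of all 11333 genes tested were called and 2.9% were lower. Unadjusted p was under 0.05 for 74 of the 78 members and for 21.7% of all genes. In 58 of the 77 members all 4 middle-aged livers lay below all 4 young livers, beside 9.28% of all genes (8.98% lay all above), and without young replicate 2 this held for 59 of 77, beside 11.2%. The calls themselves were fragile: edgeR's quasi-likelihood test called 0 of 78 (73 at an unadjusted p under 0.05), and DESeq2 called 0 of 78 without young replicate 2, with a median of -0.27. Without middle-aged replicate 1, 2 or 3 it called 6, 4 and 4, without young replicate 3 or 4 it called 9 and 14, and without aged replicate 1 it called 48.

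Aged against young gave a smaller and less even difference. All 77 members again had log2 fold changes below 0, with a median of -0.30, beside 0.01 over all genes. Of 79 members tested, 3 fell and none rose (DESeq2), where 3.58% of all 13527 genes tested were called and 1.71% were lower, so the members' share of calls was near the background. Unadjusted p was under 0.05 for 46 of the 79, beside 15.9% of all genes. The groups did not overlap in 6 of the 77 members, all lower in aged, beside 3.93% of all genes (4.51% lay all above). The edgeR test called 0 members (44 at an unadjusted p under 0.05), and DESeq2 called 0 without young replicate 2, with a median of -0.19. It also called 0 without aged replicate 3 (median -0.23), 1 without aged replicate 2 (median -0.23), 5 without young replicate 4, 6 without aged replicate 4, and 40 without aged replicate 1 (median -0.39).

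Aged against middle-aged showed no called member. The median log2 fold change was 0.08 over the 77 members, and DESeq2 called 0 of 77 tested, with 0 at an unadjusted p under 0.05, where 1.14% of all 10236 genes were called, 0.606% were lower and 9.94% had an unadjusted p under 0.05. The edgeR test also called 0, with 0 at an unadjusted p under 0.05. In none of the 77 did the 4 aged livers lie all above or all below the 4 middle-aged livers, beside 3.52% and 3.3% of all genes. Across the 3 ages together, the DESeq2 likelihood ratio test called 18 of 79 members, where 6.96% of all genes were called. Unadjusted p was under 0.05 for 66 of the 79, beside 20.5% of all genes, and edgeR called 0 (51 at an unadjusted p under 0.05). The likelihood ratio test called 1 without young replicate 2, 4 without middle-aged replicate 2, 5 without middle-aged replicate 1 or 3, 8 without young replicate 3 or 4, 11 without aged replicate 2 and 51 without aged replicate 1.

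**Figure D2:**
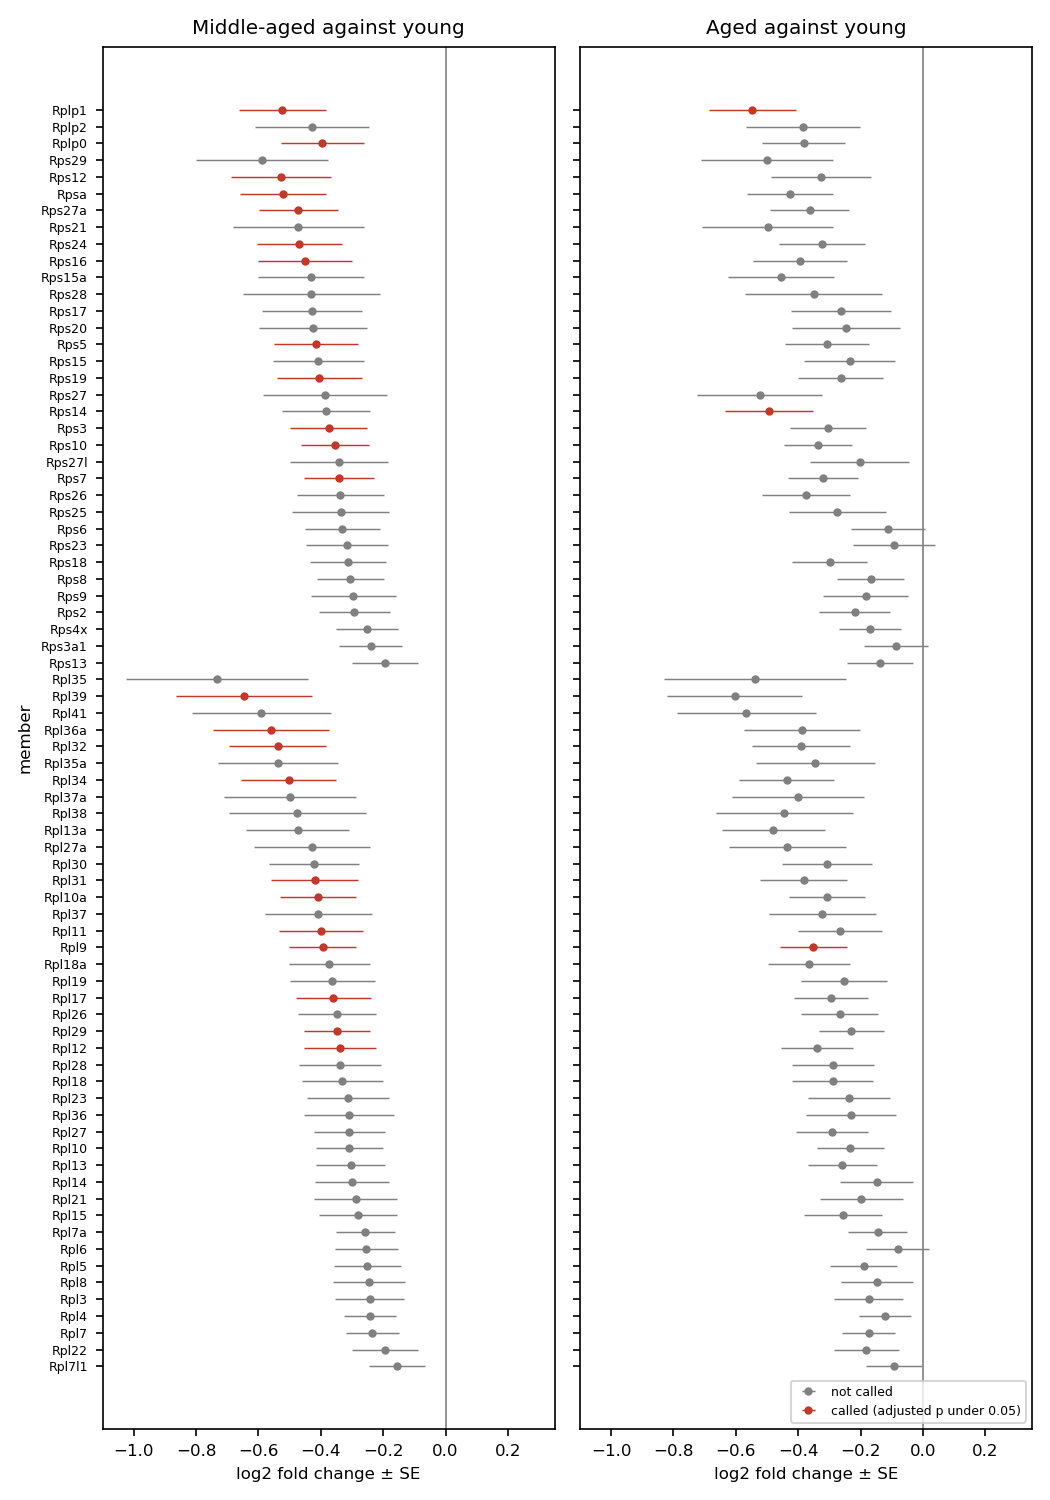
Points are DESeq2 log2 fold changes of 76 members with their SE, for middle-aged against young on the left and aged against young on the right, and red points passed an adjusted p of 0.05. All points lie below 0 in both panels, 23 are red on the left and 3 on the right.

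The stalk is the flexible arm of the large subunit that recruits the elongation factors to the ribosome. It is built on Rplp0, which carries dimers of Rplp1 and Rplp2. Rplp1 had normalised counts of 5159, 7075, 5838 and 5308 in young livers, 4070, 3733, 4140 and 4322 in middle-aged livers, and 4805, 3318, 3339 and 4543 in aged livers. Every young liver lay above every other liver. It fell by 0.52 on the log2 scale in middle-aged livers (SE 0.14, DESeq2 adjusted p = 0.0079) and by 0.55 in aged livers (SE 0.14, DESeq2 adjusted p = 0.0068). Rplp0, with young livers at 6682, 8527, 7043 and 6670 and middle-aged livers at 5475, 5012, 5440 and 6068, fell in middle-aged livers (-0.39 on the log2 scale with an SE of 0.13, DESeq2 adjusted p = 0.0488). In aged livers, where replicate 1 reached 6947, its log2 fold change of -0.38 did not pass (DESeq2 adjusted p = 0.0846). Rplp2 had log2 fold changes of -0.43 and -0.39 in middle-aged and aged livers and passed in neither (DESeq2 adjusted p = 0.137 and 0.258).

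In the small subunit, 11 of 32 members (34.4%) fell in middle-aged livers, beside 6.41% of all genes called, and 1 of 32 (3.12%) in aged livers, beside 3.58%, with median log2 fold changes of -0.38 and -0.31. Rpsa, which also acts at the cell surface as a laminin receptor, had 6956, 9203, 7475 and 6878 normalised counts in young livers. It had 5613, 4767, 5345 and 5532 in middle-aged livers and 7166, 5075, 4612 and 5853 in aged livers. The middle-aged livers were all below the young ones, whereas aged replicate 1 lay among the young. It fell in middle-aged livers (-0.52 on the log2 scale with an SE of 0.14, DESeq2 adjusted p = 0.0071), and the value in aged livers was -0.43 (SE 0.14, DESeq2 adjusted p = 0.0551).

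Rps27a, which is made as a fusion to ubiquitin, had 2435, 3053, 2572 and 2259 normalised counts in young livers and 1856, 1747, 1872 and 1961 in middle-aged livers, without overlap. It fell in middle-aged livers (-0.47 on the log2 scale with an SE of 0.13, DESeq2 adjusted p = 0.0079). Rps14, one of the proteins of the platform of the small subunit, was the one small subunit member called in aged livers. Its normalised counts were 5869, 7783, 7849 and 6519 among young, 5464, 4813, 5383 and 5828 among middle-aged and 6080, 4188, 4124 and 5528 among aged livers. Aged replicate 1 lay just above the lowest young liver. It stood at -0.49 on the log2 scale in aged livers (SE 0.14, DESeq2 adjusted p = 0.0216) and -0.38 in middle-aged livers (SE 0.14, DESeq2 adjusted p = 0.0758).

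Rps6, the subunit protein phosphorylated by the S6 kinases, did not pass in any comparison. Its normalised counts were 1293, 1463, 1230 and 1244 among young, 990, 976, 1003 and 1189 among middle-aged and 1450, 1066, 1047 and 1277 among aged livers, with log2 fold changes of -0.33 (SE 0.12) and -0.11 (SE 0.12) against young. It was among the members with the largest positive aged against middle-aged difference, with Rps12 and Rps23, although none was called there. Rps12, Rps24 and Rps10 fell in middle-aged livers, with log2 fold changes of -0.53, -0.47 and -0.35 (DESeq2 adjusted p = 0.0238, 0.0179 and 0.0275). Rps3 and Rps19, the second of which is the gene most often mutated in Diamond-Blackfan anaemia, fell there too, with log2 fold changes of -0.38 and -0.40 (DESeq2 adjusted p = 0.0398 and 0.0489). Other genes overlap 63.6% of the exonic bases of Rps10, 53.6% on the same strand, and the part of this in its counts was not tested.

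In the large subunit, 11 of 43 members tested (25.6%) fell in middle-aged livers, beside 6.41% of all genes called, and 1 of 44 (2.27%) in aged livers, beside 3.58%, with median log2 fold changes of -0.35 and -0.29. Rpl9 fell in both. Its normalised counts were 2426, 3034, 2319 and 2461 among young, 1831, 1917, 1957 and 2089 among middle-aged and 2259, 1862, 1760 and 2145 among aged livers. The young livers lay above all others. Its log2 fold changes were -0.39 in middle-aged livers (SE 0.11, DESeq2 adjusted p = 0.0096) and -0.35 in aged livers (SE 0.11, DESeq2 adjusted p = 0.0362). Rpl32 had 1205, 1764, 1268 and 1366 normalised counts in young and 866, 895, 937 and 1160 in middle-aged livers, and it fell by 0.54 on the log2 scale (SE 0.16, DESeq2 adjusted p = 0.0164). Rpl34, Rpl10a and Rpl29 fell there by 0.50, 0.41 and 0.35 on the log2 scale (DESeq2 adjusted p = 0.0233, 0.0211 and 0.0217).

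Among the 77 members, Rpl35, Rpl39 and Rpl41 had the lowest fold changes in middle-aged livers. Rpl39, a very short protein that lines the exit tunnel, had 576, 928, 601 and 484 normalised counts among young, 345, 398, 444 and 467 among middle-aged and 461, 298, 384 and 560 among aged livers. It fell in middle-aged livers (-0.65 on the log2 scale with an SE of 0.22, DESeq2 adjusted p = 0.0483), and the value in aged livers was -0.60 (SE 0.22, DESeq2 adjusted p = 0.0968). Rpl35 had 207, 508, 238 and 191 normalised counts in young livers and 148, 171, 160 and 208 in middle-aged livers. Young replicate 2 stood more than the whole range of the other young livers above them, the groups overlapped, and the difference of -0.73 on the log2 scale (SE 0.29) did not pass (DESeq2 adjusted p = 0.108). Other genes overlap 68.3% of the exonic bases of Rpl35, on the opposite strand, and the part of this in its counts was not tested. Rpl41, the shortest protein of the ribosome, stood at -0.59 on the log2 scale (SE 0.22, DESeq2 adjusted p = 0.0834).

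Rpl5 and Rpl11 carry the 5S rRNA and, when free of ribosomes, bind the p53 regulator Mdm2. Rpl11 had 3128, 4134, 3493 and 3362 normalised counts in young livers and 2717, 2654, 2480 and 2856 in middle-aged livers. It fell there (-0.40 on the log2 scale with an SE of 0.13, DESeq2 adjusted p = 0.0488), while Rpl5 stood at -0.25 on the log2 scale (SE 0.11, DESeq2 adjusted p = 0.137). Rpl13a, a member with a known role in silencing inflammatory mRNAs, had log2 fold changes of -0.47 and -0.48 in middle-aged and aged livers and passed in neither (DESeq2 adjusted p = 0.0576 and 0.0792). Other genes overlap 59.3% of its exonic bases on the same strand, and the part of this in its counts was not tested.

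Some members have a second copy elsewhere in the genome, often used in a single tissue. Rpl10l, the copy of Rpl10 used in male germ cells, had 0 counts in all 12 livers. Rpl3l, the copy of Rpl3 found in striated muscle, had 18 counts over the 12 livers, and Rpl39l, the copy of Rpl39 used in male germ cells, had 3, beside 37367 for Rpl3. Rpl22l1 averaged 2.63 ± 1.03 TPM (counts per exon length, scaled to the same total in each liver, with SD over n = 12) and Rpl22 105 ± 7.07. Its log2 fold changes were -0.94 in middle-aged and -0.92 in aged livers, each with an SE of 0.40, and it passed in neither (DESeq2 adjusted p = 0.132 and 0.198). The pair Rps27l and Rps27 changed order with the length used. They stood at 311 and 194 TPM per length of all exons. Per length of the principal coding transcript, set for the members alone, they stood at 495 and 571 TPM.

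Rpl7l1, a relative of Rpl7 known from ribosome assembly, stood apart from the rest. It had 793, 763, 918 and 794 normalised counts among young, 785, 759, 720 and 667 among middle-aged and 768, 842, 729 and 727 among aged livers. The ages overlapped, young replicate 2 was not high, and its log2 fold changes were -0.16 and -0.09 (SE 0.09 each).

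Levels per exonic length spread widely although most of these proteins occur once per ribosome. Rplp1 was highest at 2126 ± 262 TPM (SD, n = 12), followed by Rps15 at 968 ± 100, Rpl36 at 933 ± 90.3, Rps2 at 899 ± 71.7 and Rplp0 at 844 ± 71.6. The gap from Rplp1 to Rps15 was larger than their spread, and in 68 of 76 pairs of neighbours in the order the levels did not differ beyond their SD. The median of the 77 members was 238 TPM, and the median protein-coding gene with counts stood at 2.38 TPM. The highest of the 77 was 114-fold above the lowest, Rpl13a, and 59.3-fold with the length of the principal coding transcript, under which Rps14 ranked first. Both ratios rest on Rpl13a, whose exonic bases are 59.3% overlapped by other genes. With the principal length the median was 544.5 TPM and the quartiles 350.1 and 821.6 TPM, a much narrower spread than between the extremes. That length was set for the members alone, while other genes kept the length of all exons. These levels therefore compare among the members only, not with the levels per length of all exons. The order was alike in broad terms on both lengths (Spearman's rho 0.819 across the 77 genes, which are not independent replicates). Single members moved far, such as Rps3a1 from rank 7 to 34 and Rps18 from rank 23 to 4 with the principal length.

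At the low end, Rpl23a and Rpl24, which are standard parts of every large subunit, had 83 and 13 counts in all 12 livers together, or 1.87 and 0.239 TPM. Exons of other genes overlap 55.4% of the exonic bases of Rpl23a, on the opposite strand, and 71.5% of those of Rpl24, on the same strand. In addition, 85.7% and 81.7% of the 50-base stretches of their principal transcripts occur in transcripts of other genes. Over 50% of the exonic bases are overlapped in 5 members, and none in 69, and how the counting treated such reads is not given in the sources used here. Shared stretches were also common among well counted members, such as Rps27 at 98.6%. Named ribosomal pseudogenes, 295 among the rows counted, carried 0.103% to 0.198% of the members' counts. The treatment of reads with several matches is not given, so this share cannot show how many reads were shared or lost.

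**Figure D3:**
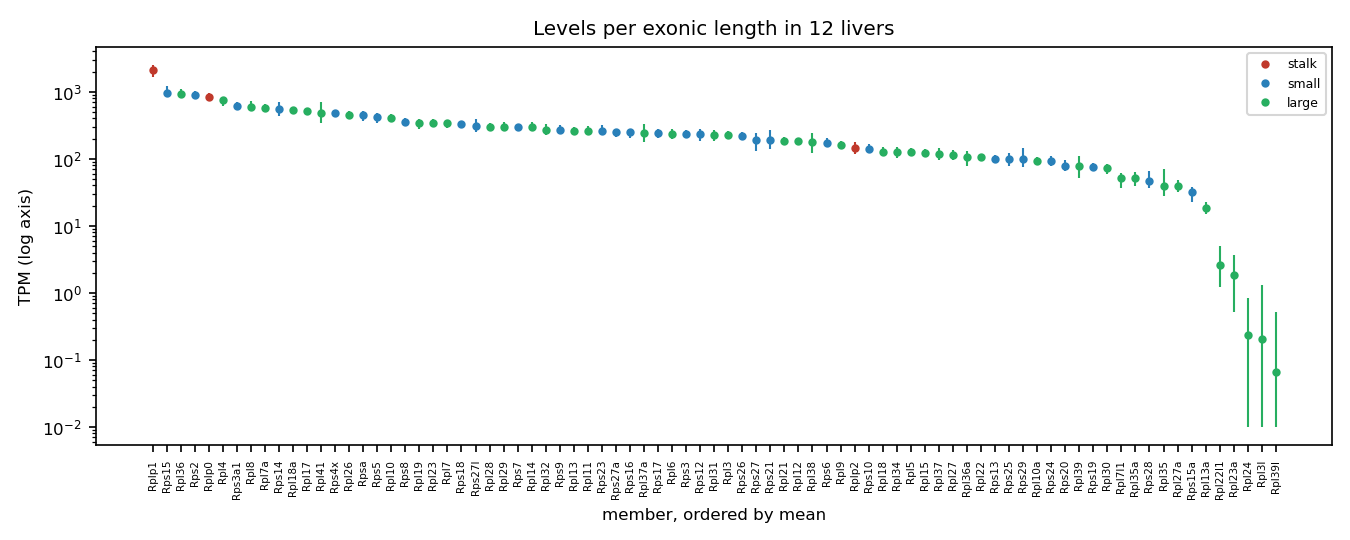
Points are the mean TPM of the members shown over 12 livers, on a log axis, ordered from high to low, and lines run from the lowest to the highest liver, cut at 0.01. Rplp1 stands highest at 2126 TPM, and the members fall steeply after Rpl13a at 18.6 TPM.

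The members varied together from liver to liver. Over the 12 livers, the 2926 pairs among the 77 members had a median Pearson's r of 0.888 on log2 normalised counts, with a range of -0.145 to 0.984, all points sharing library and depth. In 76 of the 77 members r with the median of the others was above 0.8, which 4.26% of 8811 other genes reached. Rpl34 was most like the rest at 0.991, followed by Rps19 at 0.983 and Rps24 at 0.981, and the least alike were Rpl27 at 0.83 and Rpl7l1 at 0.106. The other genes with the pattern most like the members' median were Rtraf at 0.974, Txn1 at 0.973, Fau, whose product includes a ribosomal protein outside the naming rule, at 0.972, 2010111I01Rik at 0.971, the ATP synthase gene Atp5j2 and the respiratory chain gene Cox6b1 at 0.966 each, and the elongation factor subunit gene Eef1b2 at 0.965.

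This shared level followed the spike-in share of each library. The median log2 deviation of the 77 members was 0.11, 0.50, 0.11 and 0.14 among young, -0.17, -0.20, -0.15 and -0.03 among middle-aged and 0.19, -0.29, -0.27 and 0.06 among aged livers. Spike-ins took 3.5%, 10.6%, 6.23% and 3.98% of counts among young, 2.28%, 1.85%, 1.59% and 2.73% among middle-aged and 3.51%, 2.19%, 1.87% and 3.14% among aged livers. Pearson's r between the median and the log2 spike-in share was 0.914 and Spearman's rho 0.874 over 12 livers, 0.888 and 0.818 without the 2 livers farthest from the median share. The spike-in profiles split the livers into replicates 1 and 2 and replicates 3 and 4 at every age, with r of at least 0.974 within and at most 0.951 between these sets. Between the members' median and the spike-in share, r was 0.951 in the first 6 livers and 0.868 in the other 6. Within the first set the median log2 fold change was -0.49 for middle-aged and -0.32 for aged against young, and within the second -0.24 and -0.21.

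With the spike-in share as a term beside age, chosen after seeing the data, DESeq2 called 0 members in each comparison and the median log2 fold changes were 0.04 for middle-aged and 0.02 for aged against young. Scaled to the spike-ins themselves, where the median of all genes rose by 1.49 and 1.18 on the log2 scale, the members' medians were 1.16 and 0.87, so every direction above holds relative to the other genes of the library. The spike-in share did not overlap between young and middle-aged livers, so age and spike-in share cannot be told apart in that comparison. Between young and aged livers it overlapped only through aged replicate 1 at 3.51% and young replicate 1 at 3.5%. Age and spike-in share can hardly be told apart there either. With the mitochondrial share as a term, likewise chosen afterwards, 0 members were called and the medians were -0.23 and -0.10.

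**Figure D4:**
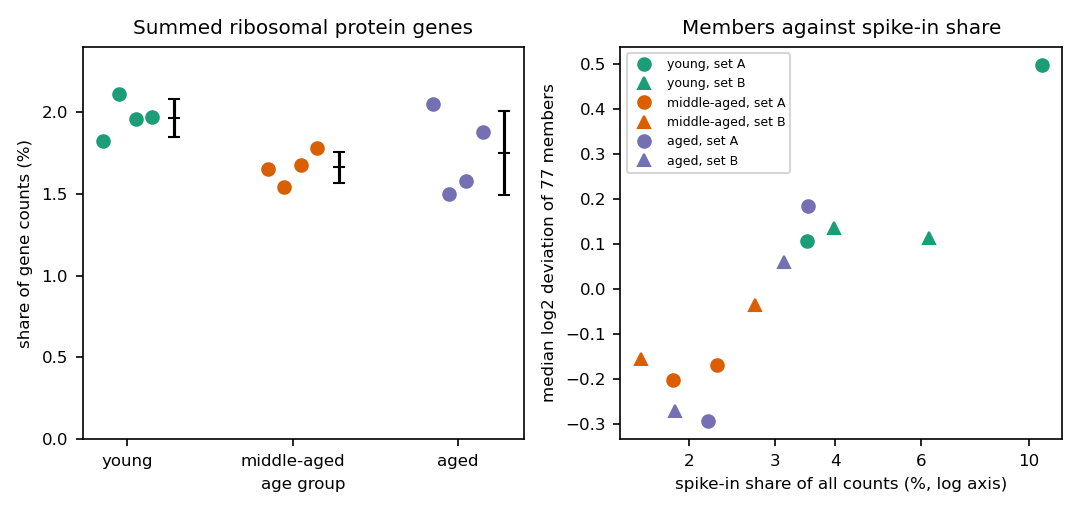
Left, summed share of the 83 members in gene counts (%) for each liver, with mean and SD per age in black. Right, median log2 deviation of 77 members against the spike-in share of all counts (%, log axis), circles for replicates 1 and 2 (set A) and triangles for replicates 3 and 4 (set B). Young replicate 2 stands highest in both measures of the right panel, at 10.6% and 0.50.

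The 77 members had a median of 1830 bases of exon, beside 4580 in other genes with a mean of at least 50. Other short genes moved in the same direction. Those with up to 1000 bases of exon (173 genes) had median log2 fold changes of -0.30 in middle-aged and -0.26 in aged livers. Other genes of 1000 to 2000 bases had -0.16 and -0.10, those of 2000 to 4000 bases -0.05 and -0.02, and those over 4000 bases 0.07 and 0.05. On the same measure, the 41 members of up to 2000 bases had medians of -0.37 and -0.31. The 36 members over 2000 bases had -0.35 and -0.29. The length of the principal transcript is another measure, with a median of 775 bases in the members, and was not set for other genes. By it, members of up to 600 bases had medians of -0.43 and -0.35, and those over 900 bases -0.34 and -0.25. With offsets that removed the trend with length and GC content in other genes, the members' medians were -0.25 and -0.23, 15 of 78 and 8 of 79 members were called, and all called members were lower.

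Other genes of protein synthesis are set beside all genes, of which 3.58% were called in aged and 6.41% in middle-aged livers. Calls in this and the next paragraph rest on the main DESeq2 fit. They were not examined in the alternative runs, such as edgeR or without young replicate 2, where members lost their calls. Of 77 mitochondrial ribosomal protein genes tested, 4 (5.19%) fell in aged livers, and of 76 tested 3 (3.95%) fell in middle-aged livers, with medians of -0.21 and -0.24. Of the nuclear respiratory chain subunits, 6 of 79 (7.59%) fell in aged and 15 of 77 (19.5%) in middle-aged livers, with medians of -0.25 and -0.31. Among 25 translation factors and other TOP mRNAs, 0 were called in aged livers (8 at an unadjusted p under 0.05), and in middle-aged livers 2 of 24 fell and 1 rose (12.5% called). Those that fell were the elongation factor subunits Eef1b2 and Eef1g, with log2 fold changes of -0.41 and -0.30 (DESeq2 adjusted p = 0.0256 and 0.0449), and Eif4b, an initiation factor, rose by 0.33 (DESeq2 adjusted p = 0.0095). Eef2, the TOP mRNA for the translocation factor, had a log2 fold change of 0.06 in middle-aged livers (DESeq2 adjusted p = 0.791).

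Ribosome biogenesis factors build the subunits in the nucleolus. In middle-aged livers 8 of 49 (16.3%) fell and none rose, with a median of -0.22, where 2.9% of all genes were lower. In aged against young livers 2 of 49 (4.08%) fell, with a median of -0.06, where 1.71% of all genes were lower. In aged against middle-aged livers 3 of 49 (6.12%) rose, with a median of 0.15, where 1.14% of all genes were called in either direction. The medians of the cytosolic ribosomal protein genes had the same signs in these comparisons, and whether the lists differed was not tested. Nop58, a core protein of the box C/D particles that methylate rRNA, averaged 272 normalised counts among young, 160 among middle-aged and 261 among aged livers. It fell by 0.77 on the log2 scale in middle-aged livers (DESeq2 adjusted p = 0.0052) and rose by 0.71 from middle-aged to aged (DESeq2 adjusted p = 0.0363). Of 35 RNA polymerase I and III genes, 1 rose and 1 fell in middle-aged livers (5.71%) and 0 were called in aged livers (4 at an unadjusted p under 0.05). Among 28 mTORC1 and TOP control genes tested in middle-aged livers, 1 rose and 1 fell (7.14%, beside 6.41% of all genes called). In aged livers 2 of 29 (6.9%) rose and none fell, beside 3.58% of all genes called. They were Larp1, the protein that binds TOP starts (log2 fold change 0.29, DESeq2 adjusted p = 0.0035), and Deptor, an mTOR inhibitor (log2 fold change 0.27, DESeq2 adjusted p = 0.0175).

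**Figure D5:**
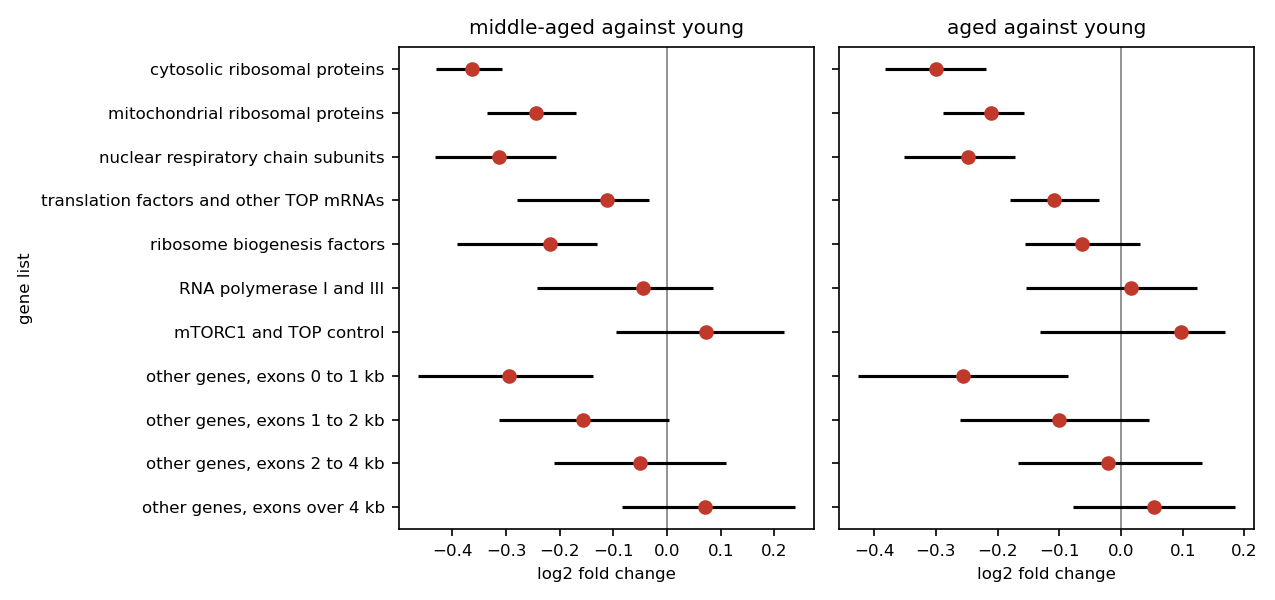
Points are median log2 fold changes and lines the quartiles over the genes of each list that average 50 or more normalised counts, for both comparisons with young. The cytosolic ribosomal protein genes have the lowest medians shown, -0.36 and -0.30. Other genes of up to 1 kb of exon come close at -0.30 and -0.26, and those of 1 to 2 kb stand at -0.16 and -0.10.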

How the data were processed

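Livers were grouped by age from the sample titles. The authors deposited whole-number read counts per gene, not normalised, with 92 spike-in rows, and the submitters' processing notes list STAR 2.5.2b, SAMtools 1.9, featureCounts, edgeR 3.28.1 and DESeq2 1.26.0 on mm10. Strand setting, treatment of reads with several matches and annotation are not given in the sources used here. The labels describe the extraction of young and old livers only, and the study names public RNA-seq data, so how these 12 libraries were prepared is uncertain.

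Counts of genes with any read were fitted with DESeq2 1.42.0 in R 4.3.3, the tool the study names, over all 12 livers with age as the only term, Benjamini-Hochberg adjustment over all genes tested and a threshold of 0.05. Alternatives used edgeR 4.0.16 and limma 3.58.1. Each sample is 1 animal. Depth allows a floor of 3 counts, 0.285 to 0.369 CPM, for counting error only. TPM was computed from counts and the union of exons in GENCODE M21 (53360 identifiers matched).

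Tools were tested on 4 simulated sets for aged against young with 200 changed genes each. Genes were drawn independently, with the same spread setting for all and no shift shared by the members. The shares that follow therefore do not describe calls for the members as a set. DESeq2 recovered 89% to 98% of 2-fold changes and 7% to 12% of 1.3-fold changes, edgeR 88% to 97% and 6% to 8%. False genes made up 8.57% to 12% of the DESeq2 calls, above the nominal 5%, and 2.78% to 7.21% of the edgeR calls, so DESeq2 calls near the threshold are less certain than their adjusted p.

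Genes named were members with fixed roles or second copies, those with the smallest p or largest change in each comparison, the extremes of level and of likeness. The members, lists and rules were chosen with earlier results of these data known. Counts and medians cover all members, and the values of 1 member are not reported here.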

Additional observations from a re-analysis of the deposited data

Results flagged for a closer look

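Within each age, the highest or lowest of the 4 livers was compared with the others by Dixon's gap over range, for the members' share, their median and 38 named members. Of 120 groups of 4 livers, 9 passed the 95% critical value, where chance gives about 1 in 20. Young replicate 2 accounted for 6 of them: the median log2 deviation of the members was 0.499 against 0.107 to 0.136 in the other young livers, and normalised counts were 2290 for Rpl34, 508 for Rpl35, 1867 for Rps23, 2234 for Rps26 and 1605 for Rps27l, each above the other young livers. In middle-aged livers, replicate 4 was high for Rpl6 at 3247 (others 2786 to 2815) and for Rps6 at 1189 (others 976 to 1003), and replicate 2 was low for Rps3 at 3729 (others 4246 to 4320).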

How the results depend on the processing

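Counts below are members called, in the order aged and then middle-aged against young, then across the 3 ages, where DESeq2 gave 3, 24 and 18. They were 0, 0 and 0 with edgeR, with edgeR and a replicate block, with the spike-in share or the mitochondrial share as a term, and without young replicates 2 and 3 and middle-aged replicate 1, the last 4 chosen after seeing the data. limma gave 15 and 6 for the last 2, TMM factors 14 and 10, total counts 1, 6 and 4, no independent filtering 6 and 5 for the last 2, length and GC offsets 8 and 15 for the first 2, the spike-in set as a term 13 in middle-aged against young, replicates 1 and 2 alone 1, 2 and 1, and replicates 3 and 4 alone 1 and 4 for the last 2. The 2 groups alone gave 1 and 59 for the first 2. Spike-in size factors gave 46, 77 and 74, all pairwise calls higher. With the replicate block, DESeq2 gave 6 in middle-aged against young and 3 across ages. Deviations of samples with one number from their age means correlated at r from -0.303 to 0.159. Samples with different numbers were not set beside them, so this cannot decide whether the numbers pair samples. The spike-in profiles split replicates 1 and 2 from replicates 3 and 4 at every age. Leaving out 1 liver gave 0 to 40, 0 to 48 and 1 to 51, lowest without young replicate 2 (in aged against young also without aged replicate 3) and highest without aged replicate 1. Aged against middle-aged stayed at 0 in each alternative run. The cause of these differences was not tested.

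Medians moved beyond the spread of the livers with spike-in size factors (0.87, 1.16 and -0.29 for aged and middle-aged against young and for aged against middle-aged), with the spike-in share as a term (0.016 and 0.040 for the first 2), and with the mitochondrial share as a term (-0.10 in aged against young). Leaving out 1 liver gave -0.39 to -0.19, -0.42 to -0.27 and -0.01 to 0.15. The share of gene counts was 2.24% in young and 1.80% in middle-aged livers without mitochondrial genes, and 1.84% in young livers with spike-ins in the total. Leaving out 1 liver gave 1.92% to 2.01%, 1.62% to 1.70% and 1.65% to 1.84% for the 3 ages.

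Called members changed sign with spike-in size factors. In middle-aged against young their log2 fold changes became 1.12 for Rpl10a, 1.14 for Rpl11, 1.13 for Rpl29, 0.99 for Rpl32, 1.05 for Rpl34, 0.94 for Rpl39, 1.12 for Rpl9, 1.13 for Rplp0, 1.03 for Rplp1, 1.13 for Rps10, 0.98 for Rps12, 1.12 for Rps19, 1.07 for Rps24, 1.06 for Rps27a, 1.15 for Rps3 and 1.02 for Rpsa. In aged against young they became 0.82 for Rpl9, 0.63 for Rplp1 and 0.70 for Rps14. With the spike-in share as a term, Rpl11 became 0.062, Rpl34 0.041, Rpl39 0.039, Rplp0 0.031 and Rps19 0.015. These 24 were the reversals of a call among the values of named members under an alternative. Only members called in the main DESeq2 fit could show a reversal. Calls that were lost without a change of sign are not counted among the 24. Calls were lost often: edgeR kept none of the pairwise calls, and neither did DESeq2 without young replicate 2. The ratio of the highest to the lowest member level was 114, and 59.3 with principal transcript length. Members under 50 counts carry too little depth for a direction.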
